A study of Mus musculus with 62 samples.

Results

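The 71 protein-coding mouse genes of the classic axon guidance families were described here across 3 brain regions. They were chosen by symbol in the GENCODE M21 annotation of GRCm38 and comprise ephrins and Eph receptors, semaphorins with their plexin and neuropilin receptors, Slits and Robos, and netrins with Dcc and the Unc5 receptors. Of these, 60 had a row in the deposited gene counts, out of 12483 rows in all. The 60 were present in the table of the nucleus accumbens (NAc) and prefrontal cortex (PFC), and 57 were also present in the table of the suprachiasmatic nucleus (SCN). Epha3, Epha8 and Ntng2 had a row in the NAc and PFC table alone. The remaining 11 had a row in neither table, which kept only genes above a minimum level. These were Efna1, Efna4, Epha1, Epha2, Ntn3, Ntn5, Robo3, Robo4, Sema3b, Sema3g and Sema6c. By family, the 60 held 12 Eph receptors, 6 ephrins, 17 semaphorins, 9 plexins, both neuropilins, 3 Slits, 2 Robos, 4 netrins and 5 receptors of the Dcc and Unc5 type.

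Axon guidance molecules steer growing axons by attraction and repulsion at the growth cone. Netrins attract through Dcc and repel through Unc5 receptors, Slits repel through Robos, semaphorins act through plexins with or without neuropilins, and ephrins and Eph receptors signal in both directions between touching cells. In the mature brain many of them stay expressed and act at synapses, dendritic spines and glial cells.

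The study examined circadian rhythm disruption (CRD), produced by repeated shifts of the light/dark cycle, in male and female C57BL/6J mice. Tissue was punched from frozen brains taken at ZT6, that is 6 h after lights on, about 4 weeks after the end of the CRD or control schedule, and gene counts came from 62 libraries of 26 mice. There were 26 libraries of the NAc, a part of the ventral striatum, 17 of the PFC and 19 of the SCN, the hypothalamic pacemaker. By the paper's account, the CRD mice used for tissue were disrupted in adolescence. The labels gave the region and the mouse number but not the schedule, its age of onset or the sex, so CRD, control, male and female mice are mixed in every region and only regions were compared.

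Total counts ranged from 28879724 to 60009482 in the NAc, from 31216225 to 50333579 in the PFC and from 16496666 to 35389742 in the SCN. Mitochondrial genes took 43.4% to 73.5% of the NAc counts, 44.8% to 62.3% of the PFC counts and 22.6% to 54.9% of the SCN counts. The regions carried their defining markers. Summed striatal neuron markers were 1045 to 2374 CPM (counts scaled to the library total adjusted by TMM) in the NAc but 58.5 to 119 CPM in the PFC, and summed cortical neuron markers were 833 to 985 CPM in the PFC and 12.1 to 471 CPM in the NAc. Summed SCN neuron markers ranged from 78.5 to 414 CPM in the SCN, and the library with the lowest sum, SCN J1199, had the highest striatal sum of that region at 506 CPM against a median of 57.5 CPM. SCN J1157 and SCN J1159 stood apart in summed member levels, at 1545 and 1518 CPM against 860 to 1275 CPM in the other SCN libraries. They also had the lowest mitochondrial shares of that region, 22.6% and 26.8%. Levels here and below are CPM after TMM scaling, and levels of different genes were compared only as CPM per kilobase of exon.

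Per kilobase, Epha4 had the highest median level in the PFC and the NAc and Efnb3 in the SCN. In the PFC, Epha4, an Eph receptor that binds ephrins of both classes, had a median of 18.3 CPM per kilobase, beside 18.2 for Ephb6, an Eph receptor without kinase activity, 12.6 for the transmembrane Sema6b and 12.3 for the membrane-anchored Sema7a. In the NAc the highest medians were those of Epha4 at 13.4, Sema6b at 12.9, and the transmembrane ephrins Efnb3 at 12.3 and Efnb2 at 8.497 CPM per kilobase. In the SCN, Efnb3 came first at 15.1, followed by Sema6b at 9.85, the secreted repellent Slit1 at 6.67 and the semaphorin receptor Plxnb2 at 5.56 CPM per kilobase. The lowest medians were 0.154 for Ephb2 in the NAc, 0.210 for Sema3f in the PFC and 0.322 CPM per kilobase for Sema3a in the SCN.

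The first comparison asked which guidance genes separated the NAc from the PFC. Netrin-1, its receptors Dcc and Unc5b, Sema3f, Efnb3 and Epha8 were higher in the NAc, whereas Ephb6, Ephb3, Ephb2, Epha10, Efna5 and Plxna1 were lower. Of the 60 members, 23 were called higher in the NAc and 22 lower (edgeR quasi-likelihood test, Benjamini-Hochberg adjusted p under 0.05 over all 11569 rows, changed at least 1.2-fold). Over all rows, 23.7% were called higher and 21.7% lower, together 45.4%, against 38.3% and 36.7% of the members, together 75%. The median absolute log2 difference was 0.52 for the members and 0.24 for all rows. The libraries of the regions did not overlap for 10 of the 60 members, or 16.7%, against 9.48% of all rows. The members split evenly by role, with 13 receptors or coreceptors higher and 12 lower of 30, and 10 ligands higher and 10 lower of 30. In bulk tissue, more cells of a type and more RNA per cell cannot be told apart. Oligodendrocyte markers moved with the region too, with all 10 listed genes in the table and sums of 743 to 1749 CPM in the NAc against 160 to 483 CPM in PFC libraries. Their part in these differences was not tested across regions.

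**Figure D1:**
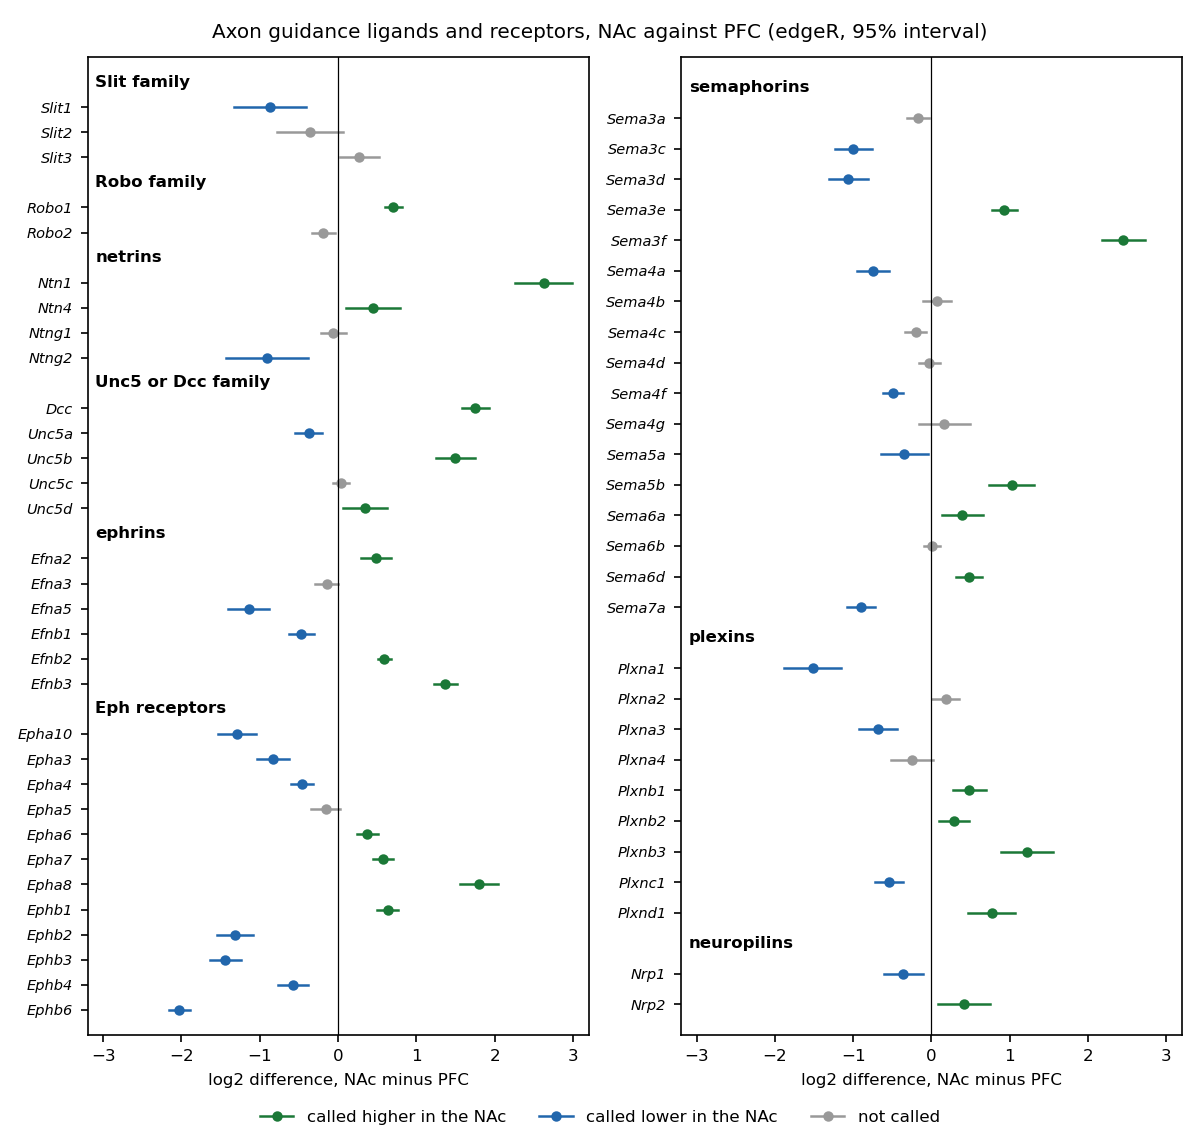
Log2 difference of each of the 60 members between NAc (n = 26) and PFC (n = 17), by family, as fitted by edgeR with its 95% interval; green points were called higher in the NAc, blue points lower and grey points neither. Ntn1 and Sema3f lie farthest right at 2.62 and 2.45, and Ephb6 farthest left at -2.03.

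Promoter sequences were compared for the members with an entry in RefSeq's table for GRCm38.p6, 51 genes with 65 promoters of 300 bases, 250 before the start of transcription and 50 after it. The 4 sequences printed here belong to the members with the largest differences in each direction that had an entry, Epha8 and Unc5b higher in the NAc and Ephb6 and Ephb3 lower. Capitals mark matches, on either strand, to the E-box CACGTG bound by clock factors such as CLOCK and BMAL1, to the GC box GGGCGG and to the cAMP response element TGACGTCA.
Epha8 (chr4:136956767-136957066, minus strand): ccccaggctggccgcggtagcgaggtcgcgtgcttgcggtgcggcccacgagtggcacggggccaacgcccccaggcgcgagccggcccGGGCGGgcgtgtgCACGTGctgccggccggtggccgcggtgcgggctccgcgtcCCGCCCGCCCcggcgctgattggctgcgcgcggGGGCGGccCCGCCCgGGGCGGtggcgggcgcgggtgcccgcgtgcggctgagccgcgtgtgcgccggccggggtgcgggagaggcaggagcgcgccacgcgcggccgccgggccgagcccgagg
Unc5b (chr10:60831532-60831831, minus strand): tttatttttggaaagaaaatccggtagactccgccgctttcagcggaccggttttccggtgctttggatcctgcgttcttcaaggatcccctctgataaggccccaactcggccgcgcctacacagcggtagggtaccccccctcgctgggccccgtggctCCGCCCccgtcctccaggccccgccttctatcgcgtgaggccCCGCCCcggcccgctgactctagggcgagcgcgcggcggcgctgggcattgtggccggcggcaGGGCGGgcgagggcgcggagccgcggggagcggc
Ephb6 (chr6:41605261-41605560, plus strand): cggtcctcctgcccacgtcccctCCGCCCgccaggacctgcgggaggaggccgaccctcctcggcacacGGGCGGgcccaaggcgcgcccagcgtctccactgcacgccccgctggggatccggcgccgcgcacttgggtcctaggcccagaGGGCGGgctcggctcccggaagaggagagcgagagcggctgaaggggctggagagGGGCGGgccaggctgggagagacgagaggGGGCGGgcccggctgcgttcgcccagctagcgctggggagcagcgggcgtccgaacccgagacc
Ephb3 (chr16:21204545-21204844, plus strand): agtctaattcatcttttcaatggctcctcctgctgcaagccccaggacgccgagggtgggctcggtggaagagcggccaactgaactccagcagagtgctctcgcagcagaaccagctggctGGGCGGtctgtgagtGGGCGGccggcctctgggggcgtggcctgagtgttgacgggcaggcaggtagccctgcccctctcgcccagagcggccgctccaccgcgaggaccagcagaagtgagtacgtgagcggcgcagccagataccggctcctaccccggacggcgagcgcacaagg
The Epha8 window held 1 E-box and 6 GC boxes in a sequence of 84.3% G and C, whereas the Unc5b window held 3 GC boxes and no E-box. Ephb6 and Ephb3 had 5 and 2 GC boxes and no E-box. Across the members, an E-box lay in 5 of 65 promoters, those of Epha8, Robo2, Sema3e, Sema4b and Sema6d, which is 7.69% against 7.15% of all 32851 promoters. A GC box lay in 46 of 65, or 70.8%, against 35.7% of all promoters, in windows with a mean G and C content of 64.1% against 53.8%. The cAMP response element lay in 0 of 65 and in 1.79% of all promoters. A match is a run of letters and not a measured binding site.

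Ntn1 had the largest difference of the 60 members between NAc and PFC, and its receptors Dcc and Unc5b were higher in the NAc with it. Ntn1 (ENSMUSG00000020902, chr11:68209364-68400823, minus strand), a secreted cue that attracts or repels axons by receptor, had a median of 14.8 CPM in the NAc (range 5.34 to 27.0), and one of 2.46 CPM in the PFC (range 1.25 to 3.55). Every NAc library lay above every PFC library, and the log2 difference was 2.62 ± 0.18 (SE, edgeR adjusted p = 3.29e-17), a 6.17-fold difference. In the SCN its median was 5.21 CPM, between the other regions. Dcc (ENSMUSG00000060534), the receptor that mediates attraction to netrin-1, had a median of 29.6 CPM in the NAc (range 20.9 to 44.0), against 8.92 CPM in the PFC (range 6.60 to 10.6). The groups were again separate, with a log2 difference of 1.75 ± 0.084 (SE, edgeR adjusted p = 4.52e-23), and Dcc was higher in the NAc in 17 of 17 mice with both regions.

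Unc5b (ENSMUSG00000020099, chr10:60762593-60831581, minus strand), a repulsive netrin receptor whose promoter is shown above, had a median of 7.55 CPM in the NAc (range 3.30 to 12.2) and one of 2.65 CPM in the PFC (range 1.42 to 3.53). The lowest NAc library lay within the PFC range, and the log2 difference was 1.5 ± 0.13 (SE, edgeR adjusted p = 2.33e-14). The other repulsive receptors differed less. Unc5d was called higher in the NAc, with a log2 difference of 0.35, although it was higher in only 8 of 17 mice with both regions. It was not called in those mice, at 0.07 in the paired comparison and 0.16 without pairing. Unc5a was called lower, by -0.38, and Unc5c was not called, with a difference of 0.04 and a 95% interval from -0.058 to 0.13. Among the other netrins, Ntn4, a laminin-binding basement membrane netrin, was called higher by 0.45, and Ntng2, a membrane-anchored netrin-G, was called lower by -0.91. The related Ntng1 differed by -0.06, with an interval from -0.22 to 0.096.

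Of the 12 Eph receptors, 11 were called and 7 of these were lower in the NAc. Ephb6 (ENSMUSG00000029869, chr6:41605482-41620509, plus strand) had a median of 17.2 CPM in the NAc (range 11.8 to 23.9), and one of 68.7 CPM in the PFC (range 52.9 to 81.1). No libraries overlapped, and the log2 difference of -2.03 ± 0.069 (SE, edgeR adjusted p = 7.05e-29) was the largest decrease among the members. Ephb3 (ENSMUSG00000005958, chr16:21204755-21223305, plus strand), a receptor for transmembrane ephrins, had a median of 2.96 CPM in the NAc (range 1.72 to 5.70), and one of 8.94 CPM in the PFC (range 6.08 to 10.8). These groups were also separate, with a log2 difference of -1.44 ± 0.099 (SE, edgeR adjusted p = 2.45e-17).

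Ephb2, which acts at excitatory synapses, had a median of 1.94 CPM in the NAc (range 1.06 to 3.91) and one of 5.14 CPM in the PFC (range 3.24 to 7.42). Its groups overlapped at the edge and the log2 difference was -1.31 ± 0.12 (SE, edgeR adjusted p = 1.04e-13). Epha10, an Eph receptor without kinase activity, had a median of 2.90 CPM in the NAc (range 1.51 to 5.36) and one of 7.97 CPM in the PFC (range 5.85 to 9.48). The groups did not overlap, and the log2 difference was -1.29 ± 0.12 (SE, edgeR adjusted p = 6.04e-13). Thus 4 of the 5 EphB receptors were lower in the NAc, Ephb4 included at -0.57, and Ephb1 was the exception at 0.63. Among the 7 EphA receptors, Epha10, Epha3 at -0.83 and Epha4 at -0.46 were lower, Epha6 at 0.37 and Epha7 at 0.58 were higher, and Epha5 was not called at -0.16.

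Epha8 (ENSMUSG00000028661, chr4:136929419-136956816, minus strand) showed the largest increase of any Eph receptor. It had a median of 4.84 CPM in the NAc (range 2.69 to 7.89) and one of 1.54 CPM in the PFC (range 0.724 to 2.01), on 34 to 88 counts per PFC library. The groups were separate, with a log2 difference of 1.80 ± 0.12 (SE, edgeR adjusted p = 7.77e-18), or 3.48-fold. It had no row in the SCN table.

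Of the 6 ephrins, Efnb3, Efnb2 and Efna2 were called higher in the NAc, Efna5 and Efnb1 lower, and Efna3 neither. Efnb3 (ENSMUSG00000003934, chr11:69554092-69560205, minus strand), a transmembrane ephrin known as a midline repellent, had a median of 39.1 CPM in the NAc (range 29.8 to 46.3) and one of 15.3 CPM in the PFC (range 8.77 to 19.9). All NAc libraries lay above all PFC libraries, with a log2 difference of 1.37 ± 0.072 (SE, edgeR adjusted p = 1.32e-21). Efnb2, which binds EphB receptors and Epha4, had a smaller difference of 0.59 but also no overlap, at 48.9 to 73.5 CPM in the NAc against 36.2 to 46.1 CPM in PFC libraries. Efna5, a lipid-anchored ephrin that patterns topographic maps, had a median of 5.46 CPM in the NAc (range 1.55 to 9.41) and one of 12 CPM in the PFC (range 7.45 to 17.01). The ranges overlapped and the log2 difference was -1.14 ± 0.13 (SE, edgeR adjusted p = 1.94e-10), with lower levels in the NAc in 17 of 17 mice. Efna2 and Efnb1 differed by 0.48 and -0.47, and Efna3 by -0.15.

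The class 3 semaphorins, which are secreted and bind neuropilins or plexins, moved in both directions. Sema3f (ENSMUSG00000034684, chr9:107681500-107710475, minus strand), the ligand of neuropilin-2, had a median of 6.80 CPM in the NAc (range 3.88 to 11.04) and one of 1.09 CPM in the PFC (range 0.688 to 2.04), the latter on 29 to 94 counts per library. No libraries overlapped and the log2 difference was 2.45 ± 0.14 (SE, edgeR adjusted p = 1.18e-20), or 5.45-fold. Sema3e, which binds Plxnd1 directly, was also higher without overlap, by 0.93, whereas Sema3c and Sema3d were lower by -0.998 and -1.06 and Sema3a was not called at -0.17. Of the 6 membrane-bound class 4 semaphorins, Sema4a at -0.75 and Sema4f at -0.49 were lower. The other 4 were not called, among them Sema4d, the ligand of Plxnb1, at -0.03 with an interval from -0.16 to 0.11, Sema4b at 0.07, Sema4c at -0.20 and Sema4g at 0.16. In classes 5 to 7, Sema5b at 1.02, Sema6d at 0.48 and Sema6a at 0.40 were higher, Sema7a at -0.90 and Sema5a at -0.34 were lower, and Sema6b differed by 0.01 with an interval from -0.093 to 0.11.

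The calls of the plexins, the signaling receptors of semaphorins, differed by subclass. All 3 B plexins were called higher in the NAc, Plxnb3 by 1.22, Plxnb1 by 0.48 and Plxnb2 by 0.29. In mice numbered up to J1021 the calls of Plxnb1 and Plxnb2 were lost, and Plxnb2 differed by -0.0030. The Plxnb2 call was also lost with total counts, at 0.27. In the 17 mice with both regions it was lost too, at 0.15 with pairing by mouse and 0.17 without. No A plexin was called higher. Plxna1 (ENSMUSG00000030084, chr6:89316314-89362620, minus strand), a coreceptor for secreted semaphorins, had a median of 20.1 CPM in the NAc (range 6.85 to 41.6) and one of 58.5 CPM in the PFC (range 34.8 to 67.7). The ranges overlapped, and the log2 difference was -1.52 ± 0.18 (SE, edgeR adjusted p = 3.71e-10). In 10.7% of its exon bases Plxna1 shares positions with exons of Gm26811 on the opposite strand, so reads of the pair may not be told apart there. Plxna3 was lower by -0.68, and Plxna2 at 0.18 and Plxna4 at -0.25 were not called. Plxnd1 was higher by 0.77 and Plxnc1, the receptor of Sema7a, lower by -0.55. The neuropilins went apart, with Nrp1 at -0.36 and Nrp2 at 0.41, the latter higher in only 7 of 17 mice. The Nrp1 call was lost with total counts at -0.36 and within either range of mouse numbers, at -0.40 and -0.33.

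Of the Slits and Robos, Slit1 and Robo1 were called between these regions. Slit1 had a median of 9.71 CPM in the NAc (range 2.74 to 22.8), a wide spread, and one of 20.4 CPM in the PFC (range 6.83 to 27.6). Its log2 difference was -0.87 ± 0.23 (SE, edgeR adjusted p = 0.000925), and it reached -1.59 when mouse was included as a replicate block in the 17 mice with both regions. In mice from J1140 on it was -0.66 and the call was lost. Slit2 at -0.36 and Slit3 at 0.27 were not called. The receptor Robo1 was higher in the NAc by 0.70, in 17 of 17 mice, whereas Robo2 differed by -0.19 and was not called.

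**Figure D2:**
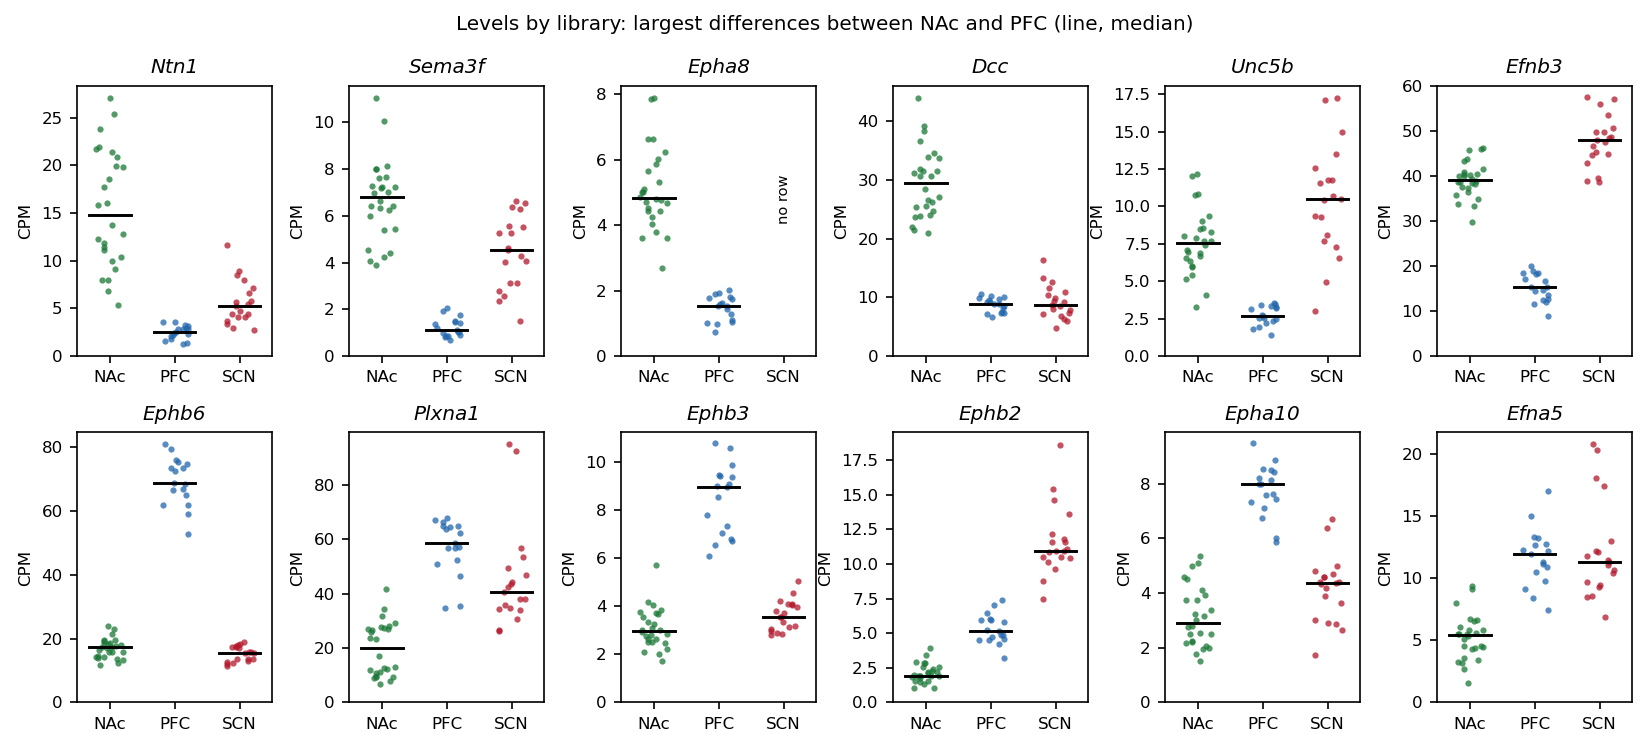
CPM of the 6 members with the largest increase (upper row) and the 6 with the largest decrease (lower row) in the NAc against the PFC. Each point is a library, with 26 of the NAc, 17 of the PFC and 19 of the SCN, and the line is the median. Ntn1, Sema3f, Epha8, Dcc and Efnb3 do not overlap between NAc and PFC, nor do Ephb6, Ephb3 and Epha10, and Epha8 has no row in the SCN.

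These 12 members were called in the same direction within either of the 2 ranges into which the mouse numbers fell. Ntn1 differed by 2.39 in mice numbered up to J1021 and by 2.80 from J1140 on, Sema3f by 2.38 and 2.49, Dcc by 1.81 and 1.69, and Efnb3 by 1.30 and 1.42. The values were 1.84 and 1.78 for Epha8 and 1.28 and 1.66 for Unc5b. On the other side, Ephb6 differed by -2.15 and -1.94, Plxna1 by -1.79 and -1.31, Ephb3 by -1.58 and -1.34, Ephb2 by -1.52 and -1.17, Epha10 by -1.49 and -1.14, and Efna5 by -1.40 and -0.95. Over all members, 16 were called higher and 24 lower in the lower range, and 24 higher and 17 lower in the upper range. Of all 11569 rows, 5426 and 4984 were called in either direction in these ranges, against 5254 in the full data. With mouse as a replicate block in the 17 mice with both regions, 5681 of all rows were called. Of the members, 18 were then higher and 25 lower, and the calls of Sema6a, Ntn4, Nrp2, Plxnb2 and Unc5d were lost. The same mice without the block gave the same member counts and lost the same calls. Both settings leave out the NAc libraries without a PFC library of the same mouse. These calls, with those of Sema5a, Nrp1, Plxnd1 and Plxnb1, were also lost in the lower range, and those of Sema5a, Slit1, Nrp1, Unc5a and Ntng2 in the upper range.

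Because ligands act on particular receptors, 56 known ligand and receptor pairs were examined, 51 of which had both members in the NAc and PFC table. Both members of a pair were called in opposite directions in 19 pairs and in the same direction in 13, and in 19 pairs at least 1 member was not called. A receptor or ligand recurs in several pairs, so the pairs are not independent. Whether these counts differ from those of other pairings of the called members, 23 higher and 22 lower, was not tested. Opposite pairs were ranked by the smaller absolute difference of their members. The leading pairs joined Efnb3, higher in the NAc, with Ephb3, Ephb6 and Ephb2, which were lower there (levels above). The fourth joined Efna5, lower in the NAc, with Epha8, which was higher. Efnb2 followed Efnb3 in being higher against lower Ephb2, Ephb3, Ephb4 and Epha4. Sema5b was higher against lower Plxna1 and Plxna3, and Slit1 lower against higher Robo1. Pairs that moved together and were higher in the NAc included Ntn1 with Dcc and Unc5b, Sema3f with Nrp2, Sema3e with Plxnd1, and Efnb3 and Efnb2 with Ephb1. Pairs that were lower together included Sema7a with Plxnc1, Sema3c with Nrp1, and Efna5 with Epha3 and Epha4. The Nrp2 call was lost in the mice with both regions, at 0.07 with the replicate block and 0.21 without it. It was also lost with total counts and in mice up to J1021. The Nrp1 call was lost with total counts and within either range of mouse numbers, and that of Slit1 in mice from J1140 on.

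**Figure D3:**
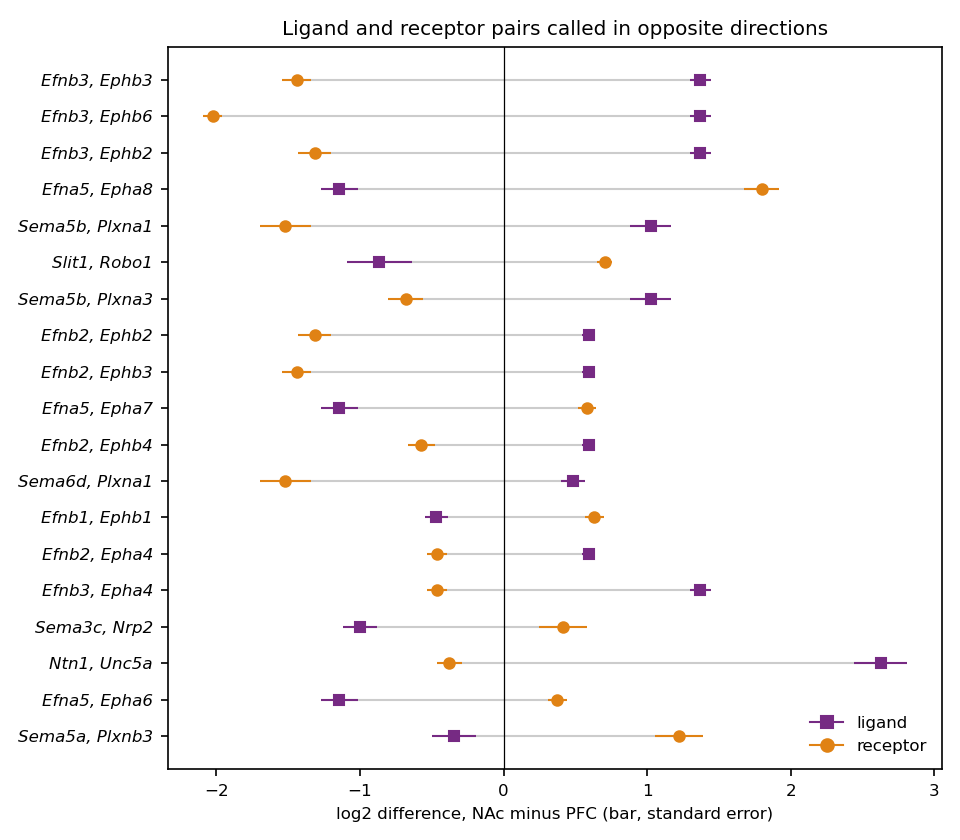
The 19 ligand and receptor pairs whose members were called in opposite directions between NAc and PFC, with the log2 difference of the ligand (square) and of the receptor (circle) and standard errors as bars. Efnb3 at 1.37 faces Ephb3 at -1.44, Ephb6 at -2.03 and Ephb2 at -1.31.

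A list of 56 other genes of the pathway, namely further cues, coreceptors and cytoplasmic effectors, was counted in the same fit. Of 55 with a row, 17 were higher in the NAc, 24 were lower and 14 were not called, with a median log2 difference of -0.12, where 23.7% of all rows were higher and 21.7% lower. Srgap1 was higher by 1.69 and Chn2, a Rac regulator, by 1.56. Lower levels were found for Boc, a netrin and Sonic hedgehog coreceptor, by -2.26, the semaphorin effector Mical2 by -2.21 and Rnd1, which binds plexins, by -1.95. The netrin and repulsive guidance molecule receptor Neo1 was lower by -0.30, and its ligands Rgma and Rgmb differed by 0.40 and -0.33.

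The second question was where the SCN stood beside these forebrain regions. The receptors Robo1, Robo2, Epha4, Epha6 and Epha7 were lower in the SCN than in either other region, while Slit1, Unc5d, Plxnb2 and Ephb2 were higher. Cell-type markers moved with the region too. Summed markers of astrocytes (6 of 6 with a row) were 1094 to 1878 CPM in the SCN, 552 to 1046 CPM in NAc libraries and 692 to 987 CPM in PFC libraries, and those of microglia (6 of 6) were 66.9 to 143, 146 to 197 and 145 to 182 CPM. Markers of ependymal cells had a row in the SCN table alone (9 of 9, summing to 12.6 to 123 CPM), and the part of these cells in the differences was not tested. The SCN was deposited in a table of its own, so region and table cannot be told apart, and both comparisons use the same SCN libraries and 1 fit over the 11133 rows in both tables. Against the NAc, 25 of 57 members were called higher in the SCN and 20 lower, or 43.9% and 35.1%, against 33.1% and 31.0% of all rows and 64.1% in either direction. Against the PFC, 23 were higher and 23 lower, or 40.4% each, against 33.7% and 31.0% of all rows and 64.7% in either direction. The median absolute log2 difference of the members was 0.76 against the NAc, where that of all rows was 0.39, and 0.83 against the PFC, where it was 0.41. Libraries did not overlap for 11 members against the NAc, or 19.3% where 13.2% of all rows did not, and for 17 against the PFC, or 29.8% where 20.7% of all rows did not.

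With total counts in place of TMM scaling, the median of all genes shifted by 0.26 against the NAc and 0.20 against the PFC, and the calls against the NAc became 32 higher and 16 lower. Without SCN J1199 and SCN J1140, 26 members were higher and 21 lower against the NAc and 23 and 23 against the PFC. Without SCN J1157 and SCN J1159, the counts were 24 and 20, and 22 and 24. Of all 11133 rows, 7135 and 7201 were called against the NAc and the PFC in the full data. With total counts these were 7527 and 7357. They were 7214 and 7259 without SCN J1199 and SCN J1140, and 7240 and 7243 without SCN J1157 and SCN J1159.

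Against both regions at once, 18 members were called higher in the SCN and 16 lower, and 3, Epha10, Ntn1 and Sema3f, went opposite ways. Of the 11133 rows, 24.2% were called higher against both, 22.3% lower and 3.37% in opposite directions, in comparisons that share the SCN libraries. Against the NAc, the Sema3f call was lost with total counts, at -0.29, and that of Epha10 in mice up to J1021, at 0.34. Ephb2 had a median of 10.97 CPM in the SCN (range 7.50 to 18.6), and no library of either other region reached that range. The log2 difference was 2.44 ± 0.11 against the NAc and 1.13 ± 0.12 against the PFC (SE, edgeR adjusted p = 2.93e-30 and 3.34e-13). The netrin receptor Unc5d had a median of 31.2 CPM (range 22.6 to 48.8), against medians of 16.4 CPM for the NAc and 12.6 CPM for the PFC. It was 1.06 ± 0.12 higher than the NAc, with overlap, and 1.41 ± 0.14 higher than the PFC, without overlap (log2, SE, edgeR adjusted p = 1.41e-11 and 1.04e-13).

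Slit1 had a median of 39.5 CPM in the SCN (range 22.9 to 78.1), all above the NAc libraries but overlapping the PFC. Its log2 differences were 1.89 ± 0.20 and 1.02 ± 0.22 (SE, edgeR adjusted p = 4.42e-13 and 4.61e-05). Plxnb2, which binds class 4 semaphorins, had a median of 42.9 CPM (range 30.1 to 100) and differed by 0.97 ± 0.10 and 1.26 ± 0.12 (SE, edgeR adjusted p = 2.18e-13 and 1.79e-15). SCN J1157 and SCN J1159 held the highest SCN values of Ephb2, Slit1 and Plxnb2. These libraries and SCN J1199 each had the highest SCN level for 13 of 57 members.

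Ranked by the smaller of their differences from the NAc and the PFC, the decreases were led by Epha7, Robo2, Sema3a and Epha4. Epha7, a receptor of lipid-anchored ephrins, had a median of 6.35 CPM in the SCN (range 3.33 to 17.6), against medians of 53.3 CPM for the NAc and 38.3 CPM for the PFC. No libraries overlapped, and the log2 differences were -3.02 ± 0.12 and -2.44 ± 0.12 (SE, edgeR adjusted p = 1.16e-32 and 1.99e-27), or 8.12-fold and 5.44-fold. Robo2, a Slit receptor, had a median of 10.2 CPM (range 4.96 to 27.6), below every library of the other regions, whose medians were 58.9 and 69.1 CPM. Its log2 differences were -2.28 ± 0.12 and -2.46 ± 0.13 (SE, edgeR adjusted p = 8.80e-26 and 3.11e-26).

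Sema3a, a secreted repellent that acts through Nrp1, had a median of 4.46 CPM in the SCN (range 2.35 to 22.2), against medians of 25.6 and 29.1 CPM. The log2 differences were -2.16 ± 0.17 and -2.33 ± 0.18 (SE, edgeR adjusted p = 9.02e-19 and 4.33e-19). Epha4 had a median of 26.9 CPM (range 17.6 to 51.3) against 108 and 147 CPM, with log2 differences of -1.94 ± 0.087 and -2.40 ± 0.094 (SE, edgeR adjusted p = 5.70e-30 and 2.77e-33). In SCN J1199, the library with the highest striatal markers, all 4 of these genes had their highest SCN level.

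**Figure D4:**
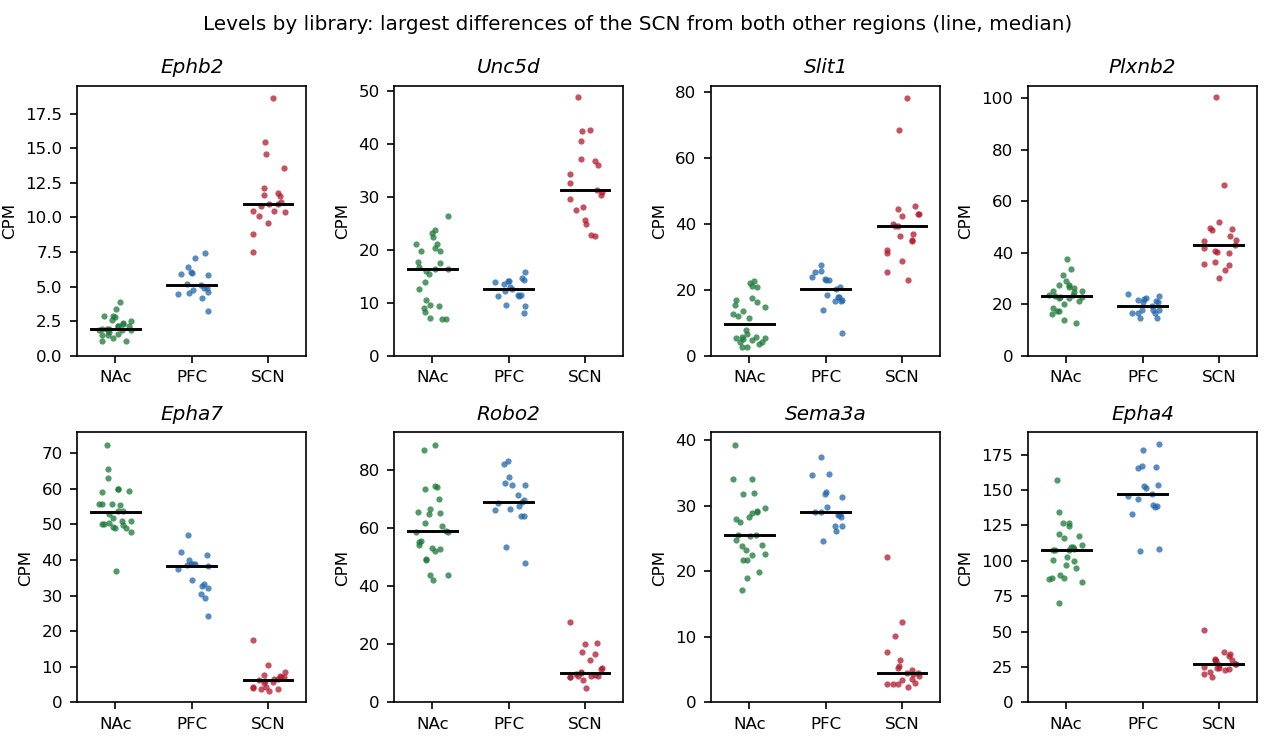
CPM of the 4 members most increased (upper row) and the 4 most decreased (lower row) in the SCN, ranked by the smaller of their differences from the NAc and the PFC, where each point is a library of the NAc (n = 26), PFC (n = 17) or SCN (n = 19) and the line is the median. Ephb2 reaches a median of 10.97 CPM in the SCN, and Epha7 falls to 6.35 CPM.

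The families kept distinct patterns in the SCN. Both Robos were lower against both regions, Robo1 by -1.58 and -0.88. Slit2 was higher by 0.88 and 0.51, while Slit3 was lower by -1.96 and -1.70. All 5 EphA receptors with a row were called lower than in the PFC. The Epha5 call was lost in paired mice, at -0.24 with the replicate block and -0.25 without it. It was also lost with total counts, at -0.14, and in mice from J1140 on, at -0.26. Against the NAc, Epha6 was lower by -1.09 while Epha10 was higher by 0.40 and Epha5 was not called at -0.19. Of the EphB receptors, Ephb6 and Ephb3 differed by -0.16 and 0.23 from the NAc, neither called, and by -2.18 and -1.22 from the PFC. Ephb4 was higher than in the NAc by 0.76, and Ephb1 was higher than in the PFC by 0.61. Dcc differed by -1.69 from the NAc and by 0.07 from the PFC, with a 95% interval from -0.15 to 0.28 for the latter. Ntn1 differed by -1.44 from the NAc and by 1.18 from the PFC, and the latter call was lost in mice numbered up to J1021.

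Among the ephrins, Efnb3 was highest in the SCN, by 0.29 over the NAc, a call lost in mice from J1140 on at 0.25, and 1.65 over the PFC, and Efnb2 was lowest there, by -2.24 and -1.65, without overlap. Efna5 was higher than in the NAc by 1.21 and Efna3 lower than in both by -0.60 and -0.75. The Efna3 call against the NAc was lost with total counts, at -0.28. Efna2 at 0.52 and Efnb1 at -0.29 were called against the PFC alone. The Efnb1 call was lost with total counts, at -0.10, with a minimum mean of 5 CPM, at -0.26, and in mice from J1140 on, at -0.18. With total counts, Efna2 and Efnb1 were called against the NAc as well.

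Of the 5 class 3 semaphorins, Sema3a, Sema3c, Sema3e and Sema3f were lower than in the NAc. Against the PFC, Sema3f was higher by 1.86 and the other 4 were lower, Sema3d included at -0.83. Of the 6 class 4 semaphorins, 5 were higher than in the NAc, by 1.28 for Sema4a, 0.75 for Sema4f, 0.70 for Sema4g, 0.49 for Sema4d and 0.47 for Sema4b, and Sema4c was not called at 0.26. Against the PFC 4 of the 6 were higher. Sema6a, Sema6d and Sema5a were higher against both regions and Sema7a and Sema6b lower, Sema7a by -1.21 and -2.11, and Sema5b was lower than in the NAc alone, by -0.89. Both Sema6b calls were lost with total counts, at -0.14 against the NAc and -0.19 against the PFC. In mice up to J1021, Sema6b was not called against the NAc, at -0.26, nor Sema5a against the PFC, at 0.31.

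Of the plexins, all 3 B plexins were higher than in the PFC, by 1.52 for Plxnb3, 1.26 for Plxnb2 and 0.79 for Plxnb1. Plxnd1 was lower by -2.57 and -1.81, together with its ligand Sema3e. Plxna2 was lower by -2.02 and -1.84 and Plxna4 by -0.49 and -0.74, whereas Plxna3 was higher by 1.43 and 0.74, and Plxna1 and Plxnc1 were higher than in the NAc alone, by 1.196 and 0.75. The Plxna4 call against the NAc was lost with total counts, at -0.24, and in mice from J1140 on, at -0.41. Nrp2 was higher by 0.91 and 1.32, and Nrp1 was higher than in the NAc by 0.59. Among the netrin receptors, Unc5c was higher by 0.76 and 0.79 and Unc5b by 0.45 and 1.95. Unc5a, at 0.07 against the NAc, was lower than in the PFC by -0.31. This Unc5a call was lost in paired mice, at -0.25 with the replicate block and -0.20 without it. It was also lost with total counts, at -0.09, and in mice from J1140 on, at -0.20. Ntn4 and Ntng1 were called against neither region.

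Of the 49 pairs with both members in both tables, 24 had members called in opposite directions between SCN and NAc and 12 in the same direction, against 18 and 17 between SCN and PFC. These counts were not tested against other pairings of the called members either. Slit1 and Slit2 were higher while Robo1 and Robo2 were lower, so all 4 of these pairs were opposite in both comparisons, and Slit3 moved with its receptors. The Slit2 call against the PFC was lost without SCN J1157 and SCN J1159, at 0.41, and in mice up to J1021, at 0.24. Sema4d and Sema4g were higher with Plxnb2, and Sema4d with Plxnb1. Against the NAc, the Plxnb1 call was lost without SCN J1157 and SCN J1159, at 0.24, and in mice from J1140 on, at 0.26. Of the 54 other pathway genes tested, 15 were higher and 24 lower than in the NAc, and 12 were higher and 31 lower than in the PFC. Over all rows, 33.1% were higher and 31.0% lower than in the NAc, and 33.7% were higher and 31.0% lower than in the PFC. Lower against both were the exchange factor Ngef, which acts downstream of EphA receptors, by -2.66 and -1.98, and the Rac regulator Chn1 by -2.25 and -2.50. Higher against both were Rgma by 0.73 and 1.13 and the collapsin response mediator Dpysl5 by 0.86 and 1.23.

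The third question was how far members varied with the cell markers of the punched tissue within a region. Across the 26 NAc libraries, summed cortical neuron markers (7 of 8 listed had a row, Emx1 not) had a median of 101 CPM (range 12.1 to 471). Members were correlated on the log2 scale with that sum, with two-sided permutation tests of 100000 resamples and Benjamini-Hochberg adjustment over all rows. Of the 60 members, 30 rose with the cortical markers and 3 fell, or 50% and 5%, against 22.2% and 20.6% of all rows. The sum itself fell as the mitochondrial share rose (r = -0.61, rho = -0.573, permutation p = 0.00079 and 0.00252), and the part of either in the members' levels was not tested. Its relation with total counts had r = 0.11 (permutation p = 0.579).

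Ntng2 followed the cortical markers most closely, with r = 0.92 and rho = 0.92 (permutation p = 1e-05 for each, the smallest that the resamples allow, adjusted 0.000168 and 0.000213), and r = 0.96 after the 2 most distant libraries were left out. Exons of Ntng2 share 14.0% of their bases with 6530402F18Rik on the same strand. Slit1 had r = 0.88 and rho = 0.88 with the same permutation p, and 0.85 without those libraries. Dcc went the other way, with r = -0.77 and rho = -0.81 (permutation p = 1e-05, adjusted 0.000168 and 0.000213) and -0.80 without those libraries. Within the lower and the upper range of mouse numbers, r was 0.88 and 0.96 for Ntng2, 0.90 and 0.86 for Slit1, and -0.72 and -0.82 for Dcc. The relation of Dcc did not pass in the lower range (n = 12, permutation p = 0.011, adjusted 0.0678).

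Other members that rose with the sum were Unc5a (r = 0.84), Plxna1 (r = 0.82), Sema3a (r = 0.80), Slit2 (r = 0.79), Sema5a and Nrp1 (r = 0.76 each), and the others that fell were Robo1 (r = -0.58) and Epha6 (r = -0.56), each passing the adjusted permutation test with n = 26. Ntn1 rose too (r = 0.66), although it was lower in the PFC than in the NAc. Of the 10 members whose libraries did not overlap between NAc and PFC, Ntn1, Dcc, Epha10 (r = 0.70) and Ephb3 (r = 0.53) passed. The other 6, Efnb2, Efnb3, Epha8, Ephb6, Sema3e and Sema3f, did not, with r from -0.44 for Sema3f to 0.08 for Ephb6.

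Oligodendrocyte markers gave a second axis. In the NAc, 17 members rose with the summed oligodendrocyte markers and 0 fell, or 28.3% and 0%, against 17.1% and 14.1% of all rows. This relation was examined after that of the SCN had been seen. Unc5b had r = 0.87 and rho = 0.88 (permutation p = 1e-05 for each, adjusted 0.00119 and 0.00246), and Plxnb3 had r = 0.80 and rho = 0.80 (permutation p = 2e-05 and 1e-05, adjusted 0.00154 and 0.00246). With the 2 most distant libraries left out their r was 0.82 and 0.74, and they were then the 2 members that passed. Within the lower and the upper range, r was 0.82 and 0.94 for Unc5b and 0.78 and 0.84 for Plxnb3, whose relation did not pass in the upper range (adjusted 0.108, permutation). This sum also fell as the mitochondrial share rose (r = -0.615, rho = -0.566, permutation p = 0.00087 and 0.003). Sema4d, Sema6a and Plxnb1 had r = 0.72 each.

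In the SCN, where summed oligodendrocyte markers ranged from 421 to 3004 CPM across 19 libraries, 2 of 57 members rose with them and 0 fell, against 2.31% and 0.216% of all rows. Unc5b again led, with r = 0.84 and rho = 0.81 (permutation p = 2e-05 and 5e-05, adjusted 0.00231 and 0.00552) and r = 0.74 with the 2 most distant libraries left out. Within the ranges r was 0.91 (n = 7, exact permutation p = 0.00377, adjusted 0.184) and 0.77 (n = 12, permutation p = 0.0038, adjusted 0.232), which did not pass. Efnb3 had r = 0.71 and rho = 0.62 (permutation p = 0.00057 and 0.00509), of which only r passed after adjustment (0.0282 and 0.131), and Plxnb3 had r = 0.68 and did not pass (adjusted 0.0511, permutation). In the SCN the sum was not related to the mitochondrial share beyond the resamples (r = -0.0784, rho = -0.205, permutation p = 0.752 and 0.397).

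**Figure D5:**
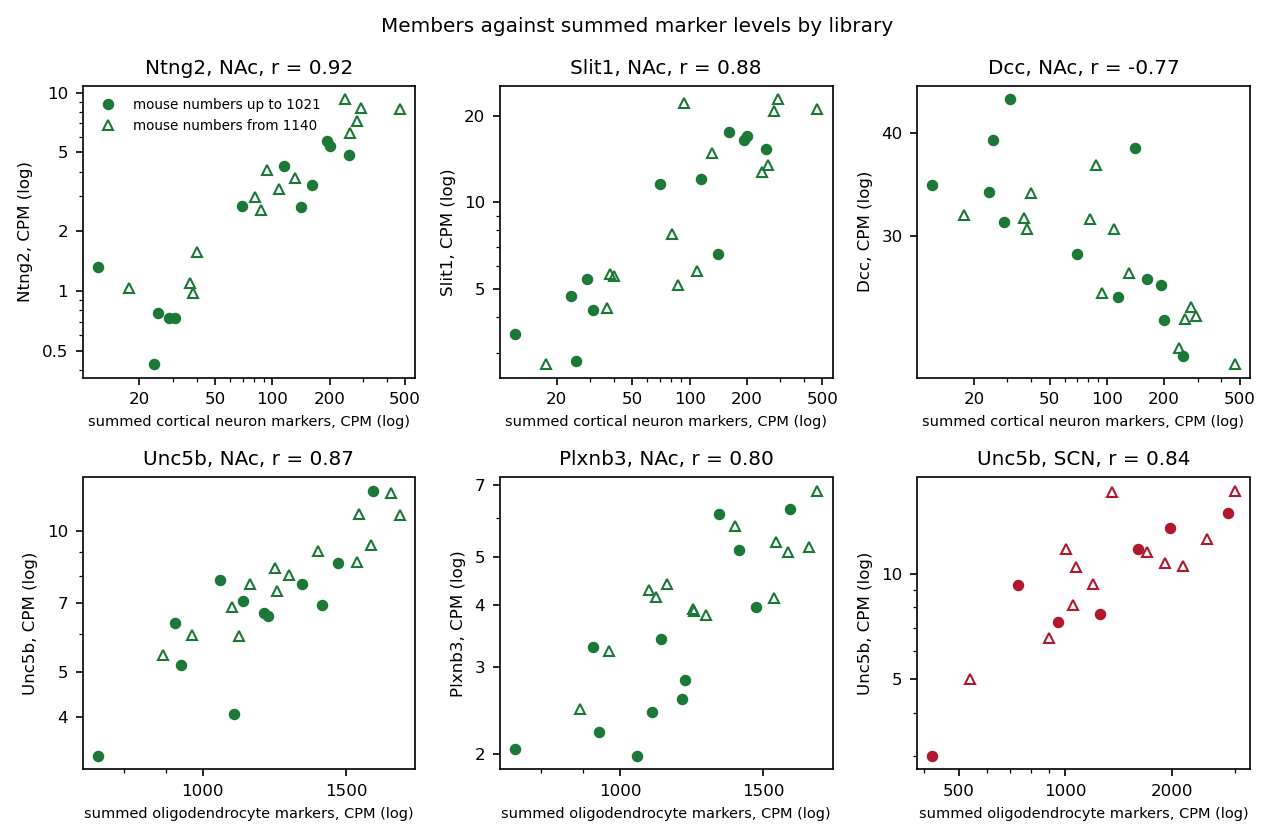
CPM of single members against summed marker CPM by library, both on log axes, for Ntng2, Slit1 and Dcc with cortical neuron markers in the NAc and for Unc5b and Plxnb3 with oligodendrocyte markers in the NAc or SCN. Filled circles are mice numbered up to J1021 and open triangles mice from J1140 on; Ntng2 rises (r = 0.92) and Dcc falls (r = -0.77) along the cortical sum, and Unc5b rises along the oligodendrocyte sum in the NAc (r = 0.87) and the SCN (r = 0.84).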

How the data were processed

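Gene counts were measured in 62 libraries from 26 mice, prepared by SmartSeq HT from 10 ng of RNA. The counts deposited by the authors came from reads checked with FastQC 0.11.7, aligned with HISAT2 to GRCm38 and counted per gene with HTSeq; whether strand was used is not given in the sources used here. By the paper's account, the authors filtered each region separately, kept genes above 1 CPM in at least 50% of a group's subjects and removed Y-chromosome genes. They gave the SCN a table of its own. Its 12047 rows are more than the paper reports for the SCN after filtering, so the filter behind the deposited counts is not known exactly.

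Counts were analysed with edgeR 4.0.16 (R 4.3.3) after TMM scaling, by the quasi-likelihood test with Benjamini-Hochberg adjustment over all rows, calling rows with an adjusted p under 0.05 that changed at least 1.2-fold. NAc and PFC were fitted in their own table of 43 libraries, and the SCN in a joint fit of 62 libraries over 11133 shared rows. Named members were the 6 with the largest called change in each direction between NAc and PFC and the 4 in each direction in the SCN called against both regions. Correlations used log2 levels with a prior count of 2 and Python 3.11.15 with scipy 1.17.1, adjusted over all rows, although adjustment over the members had been planned. Scripts were tested on simulated data. Total counts ranged from 16496666 to 60009482 per library, and no libraries agreed within sampling noise. The same mouse number was taken to mark the same animal. The deviations of libraries from the same mouse had a median correlation of -0.0148 between NAc and PFC (17 mice), 0.00984 between SCN and NAc (19 mice) and 0.147 between SCN and PFC (12 mice). For libraries of different mice the medians were -0.017, -0.0179 and -0.00839. The library of the same mouse was the best match in 0 of 17, 0 of 19 and 1 of 12 mice, so the counts themselves do not show the pairing. Alternatives were DESeq2 1.42.0, other scalings and filters, the replicate block, either range of mouse numbers and libraries left out. The members and lists were chosen with earlier results of these data known. CRD was not compared, since the labels used here do not give the schedule.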

Additional observations from a re-analysis of the deposited data

How the results depend on the processing

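At least 1 alternative ended the call of 12 of 45 members between NAc and PFC, 7 of 45 between SCN and NAc and 7 of 46 between SCN and PFC, where the minimum of 5 CPM tested 35, 42 and 41 of them. DESeq2 gave 24 higher and 22 lower between NAc and PFC, and the same counts as edgeR in the SCN comparisons. Total counts gave 18 and 21 between NAc and PFC, 32 and 16 between SCN and NAc, and 27 and 19 between SCN and PFC. With the replicate block in paired mice, the counts were 18 and 25, 26 and 20, and 24 and 22. The same mice without the block gave 18 and 25, 27 and 20, and 26 and 21. Of all rows, 5254, 7135 and 7201 were called in the full data, in the same order of comparisons. The calls were 5265, 7143 and 7212 with DESeq2, 4835, 7527 and 7357 with total counts, and 5681, 7039 and 7153 with the block. The members passing with cortical markers in the NAc fell from 33 to 7 in mice up to J1021 and 18 from J1140. Of all 11562 rows, 4954, 1152 and 1547 passed in the same settings. With oligodendrocyte markers in the NAc, 17 became 11 by Spearman's rho, 2 without the 2 farthest libraries, and 6 and 1 in the ranges. Of all 11559 rows, 3603 became 2248, 95, 1041 and 9 in the same order. In the SCN, 2 became 1 by rho, 1 without the 2 farthest libraries, and 0 and 0 in the ranges. Of all 12037 rows, 304 became 277, 152, 0 and 58. The alternatives without NAc J1199, SCN J1199 and SCN J1140 were planned, and those without SCN J1157 and SCN J1159 and for oligodendrocyte markers in the NAc were chosen after seeing the data.

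Log2 differences changed sign as follows; Plxnb2 was called in the full data, and Ephb1 against the NAc was called with total counts. Between NAc and PFC, total counts gave Sema6b -0.052 and Unc5c -0.027, the replicate block Sema4g -0.10 and Sema4b -0.046, the same mice without block Sema4g -0.034 and Sema4b -0.023, mice up to J1021 Sema6b -0.14, Plxnb2 -0.0030 and Unc5c -0.026, and mice from J1140 Sema4d 0.13. Between SCN and NAc, total counts gave Epha5 0.055, Ephb6 0.10, Ephb1 0.27 and Ntng1 0.20, the mean of at least 5 CPM Ephb1 0.0021, the replicate block Unc5a -0.0083, mice up to J1021 Ephb1 0.021 and Ntng1 0.0075, mice from J1140 Unc5a -0.040, and leaving out SCN J1157 and SCN J1159 Unc5a -0.013. Between SCN and PFC, total counts gave Ntng1 0.056, the replicate block Dcc -0.074, the same mice without block Dcc -0.049, mice up to J1021 Ntn4 -0.39, Ephb4 -0.017, Efna5 -0.10, Sema5b -0.20 and Dcc -0.00070, leaving out SCN J1199 and SCN J1140 Dcc -0.0074, and leaving out SCN J1157 and SCN J1159 Efna5 -0.037. The cause was not tested. The median total of the SCN libraries, 22574686, was below those of the NAc, 45179771, and the PFC, 43361149, which limits low members there.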
